A study of Homo sapiens with 10 samples.

Results

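MHC class II and its regulators were followed in the venetoclax (VEN) resistance model of the RS4;11 cell line, as 10 genes of the 63677 gene identifiers counted. The 10 genes were CIITA, CD74, HLA-DRA, HLA-DRB5, HLA-DQA1, HLA-DQB1, HLA-DMA, HLA-DMB, RFX5 and RFXANK, matched to Ensembl identifiers by their GENCODE symbols. The set was selected on measured values, since it was taken up because CIITA and HLA-DQA1 were lower in the VEN-insensitive lines. The difference of these 2 genes is therefore given as a description without a test.

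RS4;11 is an established cell line from BCP-ALL, an acute leukemia of B-cell precursors. VEN inhibits BCL-2, and its dose was stepped up in 5 separate cultures of this line, which became the VENins lines (VEN-insensitive). Another 5 cultures received only the solvent DMSO and became the VENsens lines (VEN-sensitive). VEN stayed in the VENins cultures throughout, and a wash took it out before any sample was measured. All 10 lines came from 1 parental line, and 1 RNA-Seq library was made of each, so that the spread within a condition is that between 5 parallel lines. Gene counts per library were between 20631907 and 28323643 in VENsens and between 21145316 and 25394653 in VENins.

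MHC class II molecules present peptides from endocytosed proteins to CD4+ T cells and belong to the normal equipment of B-lineage cells. An alpha and a beta chain (HLA-DR, HLA-DQ, HLA-DP) assemble around the invariant chain CD74, proteases trim CD74 down to a short stub, and HLA-DM exchanges the stub for a peptide. Transcription of these genes is governed by a shared promoter module with X and Y boxes. RFX5, RFXANK and RFXAP bind its X1 box, CREB1 its X2 box and the NF-Y subunits its Y box, and this platform, the enhanceosome, recruits the coactivator CIITA, which does not bind DNA itself.

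Markers were examined first. All 12 B-cell precursor markers had a mean of at least 1 CPM (counts per 1000000 counts on tested genes, scaled by TMM). Their summed level lay between 3713 and 3807 CPM in VENsens and between 3641 and 4069 CPM in VENins. Within this sum 7 markers were lower and 5 higher in VENins by log2 fold change. At an unadjusted p under 0.05 (edgeR quasi-likelihood test) 6 of the 12 passed, 3 of them lower, compared to 16.2% and 8.38% of all tested genes. After adjustment 1 was lower, PAX5, compared to 0.161% of all tested genes. Per length, as TPM (counts divided by the length of the annotated exon union and rescaled to a sum of 1000000), IGLL1 had the highest mean of the list in both conditions, with 2037 ± 119 TPM in VENsens and 2215 ± 194 TPM in VENins (SD, n = 5). VPREB1 was within its spread with 2013 ± 16.7 and 2146 ± 143 TPM, and IGLL1 was the highest in 3 of 5 VENsens and 4 of 5 VENins lines. Of 6 matched T-cell markers none reached a mean of 1 CPM, CD8A was at 0 in all libraries, and the sum was at most 1.08 CPM in any library. Dendritic-cell markers summed to at most 1.06 CPM and erythroid markers to at most 0.242 CPM. Among monocyte markers only CSF1R and ITGAM exceeded a mean of 1 CPM, with a summed level of the list between 12.4 and 18.1 CPM, while S100A8 and S100A9 were at 0 throughout. Markers of other antigen-presenting cells were thus near 0 or low in both conditions. In bulk RNA, fewer expressing cells and less RNA per cell cannot be told apart.

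VENins line 4 stood apart from the other VENins lines in 2 of the precursor markers. DNTT, the template-independent polymerase of early lymphoid cells, had 27.3 CPM there and between 1.08 and 3.38 CPM in the other 4 VENins lines. BLNK, an adaptor of pre-B-cell receptor signaling, had 9.55 CPM in this line and at most 3.09 CPM in the other 4. In the counts of all tested genes VENins line 5 was the farthest from the other VENins lines, with a chi-square per degree of freedom of 13.4 to 14.4 in its 4 comparisons, against 4.33 to 9.75 among lines 1 to 4. IGLL1 had 899 CPM in this line and at most 747 CPM in the other 4. Class II values were accordingly also computed without the line pairs 4 and 5.

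The region that holds the class II genes was almost empty in the counts. Of 177 protein-coding genes that start between 4 Mb before and 1 Mb after HLA-DRA on chromosome 6, 163 (92.1%) had at most 10 counts summed over all 10 libraries, and 148 (83.6%) had none. Among the 19199 protein-coding genes elsewhere, 28.1% had at most 10 counts. The empty genes included ones that every cell uses, such as the ribosomal protein gene RPS18 with 3 counts, the tubulin gene TUBB with 1 and the RNA helicase gene DDX39B with 0. This window was set after the counts were seen, and the cause of the low counts was not tested. Only 7 of the 177 genes had a mean of at least 1 CPM, among them HLA-DRA, HLA-DQA1 and HLA-DQB1.

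**Figure D1:**
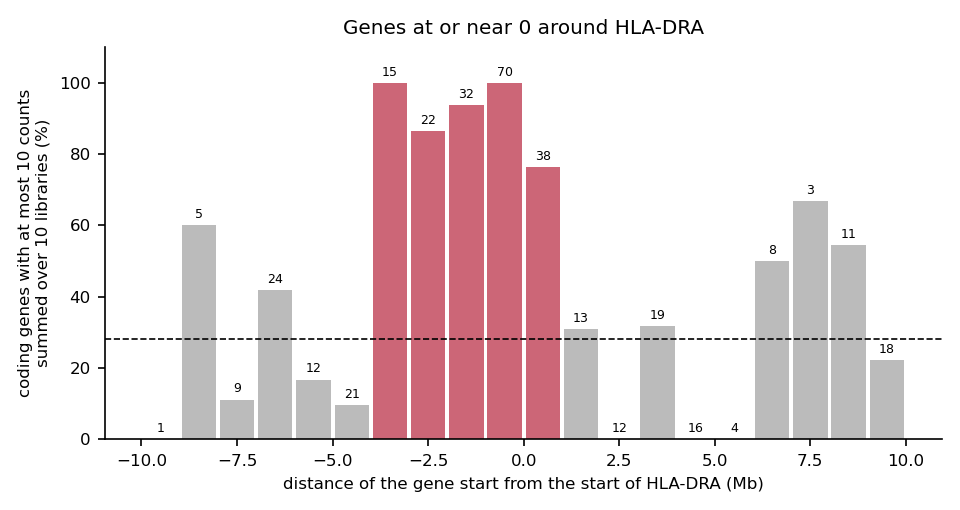
Share of protein-coding genes with at most 10 counts summed over 10 libraries (y axis, percent), by distance of the gene start from that of HLA-DRA on chromosome 6 (x axis, Mb). Numbers above the bars are genes per bar, the dashed line is the share elsewhere (28.1%), and the red bars, the window from 4 Mb before to 1 Mb after HLA-DRA, reach from 76.3% to 100%.

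Consequently, a 0 in this window says only that the gene is listed at 0. Values of HLA-DRA, HLA-DRB5, HLA-DQA1 and HLA-DQB1 likewise rest on the reads counted there, and what share of their transcripts these stand for was not tested. The peptide exchange factor HLA-DM was among the nearly empty genes. HLA-DMB (ENSG00000242574) was listed at 0 in all 10 libraries and HLA-DMA (ENSG00000204257) at 0 in 9, with 1 count in VENins line 5. HLA-DPA1, HLA-DPB1, HLA-DQA2 and HLA-DQB2, the HLA-DM inhibitors HLA-DOA and HLA-DOB and all 6 class II pseudogenes were listed at 0 in every library as well. HLA-DRB1, the main DR beta gene, had between 0 and 3 counts per library. HLA-DRB3 and HLA-DRB4 were not matched to an identifier. None of these genes passed the filter on low counts, and no comparison is given for them. CIITA, CD74, RFX5 and RFXANK lie on other chromosomes.

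After a filter on low counts, 8 of the 10 genes were tested. HLA-DRB5 was among them only through VENsens, in which all 5 lines reached the minimum of 0.411 CPM compared to 1 VENins line. Its difference is therefore partly fixed by the filter. Reads of class II genes that share sequence with a near copy, such as HLA-DRB5 with HLA-DRB1, may also have been assigned to the other copy or to none.

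CIITA (ENSG00000179583, chromosome 16) is the coactivator on which class II transcription depends. It was at 84.8, 89.2, 77.2, 80.5 and 75.9 CPM in VENsens lines 1 to 5. In VENins lines 1 to 5 it was at 52.8, 45.5, 59.3, 71.4 and 55.8 CPM. All VENins lines were below all VENsens lines, with line 4 closest and line 2 farthest. Mean levels were 81.5 ± 5.50 CPM in VENsens and 57.0 ± 9.56 CPM in VENins (SD, n = 5 each). The log2 fold change was −0.53 ± 0.09 (SE). Lines differed more among themselves in VENins, with an SD of log2 CPM of 0.24 compared to 0.10 in VENsens. The median SD of genes with a mean of at least 5 CPM was 0.11 in VENins and 0.09 in VENsens.

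HLA-DQA1 (ENSG00000196735), the DQ alpha chain, was the other gene that chose the set. It had 3.95, 3.73, 4.09, 3.21 and 3.87 CPM in VENsens and 2.02, 1.96, 1.99, 2.79 and 1.74 CPM in VENins, from 40 to 116 counts per library. Again no VENins line reached the lowest VENsens line, and line 4 was the highest VENins line. The means were 3.77 ± 0.339 and 2.10 ± 0.400 CPM (SD, n = 5), corresponding to a log2 fold change of −0.84 ± 0.15.

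Its partner HLA-DQB1 (ENSG00000179344), the DQ beta chain, was at 31.0, 31.8, 26.3, 26.6 and 27.0 CPM in VENsens. It was at 20.2, 21.2, 22.2, 24.7 and 23.1 CPM in VENins. The conditions did not overlap, and all 5 VENins lines were below the VENsens line of the same number. The log2 fold change of −0.36 ± 0.08 was smaller in size than that of HLA-DQA1, and a test of this difference was not made. With the line number as a block, HLA-DQB1 did not pass the test over all genes (edgeR quasi-likelihood test, Benjamini-Hochberg adjusted p = 0.0837).

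The DR chains showed lower means in VENins, too. HLA-DRA (ENSG00000204287), the DR alpha chain, was at 30.2, 29.7, 26.1, 21.8 and 26.5 CPM in VENsens and at 20.2, 21.9, 24.8, 22.4 and 17.0 CPM in VENins. Here the conditions overlapped, since VENsens line 4 lay below VENins lines 2, 3 and 4. HLA-DRA had a log2 fold change of −0.34 ± 0.10 and was lower in 4 of 5 VENins lines compared to the VENsens line of the same number (edgeR adjusted p = 0.123). HLA-DRB5 (ENSG00000198502), a DR beta chain, rested on 12 to 22 counts per VENsens library and 4 to 11 counts per VENins library. These amounted to 0.915, 0.969, 0.599, 0.650 and 0.479 CPM in VENsens and 0.282, 0.450, 0.366, 0.393 and 0.174 CPM in VENins. The highest VENins line stayed just under the lowest VENsens line. The log2 fold change of HLA-DRB5 was −1.09 ± 0.27, and no test is given for it because of the filter.

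CD74 (ENSG00000019582, chromosome 5), the invariant chain, accompanies class II dimers from the endoplasmic reticulum to the endosome and blocks their groove. It was at 1069, 1025, 975, 942 and 944 CPM in VENsens and at 775, 816, 804, 887 and 923 CPM in VENins. VENins line 5 came close to VENsens lines 4 and 5, but the conditions did not overlap. The mean was 991 ± 54.9 CPM in VENsens and 841 ± 61.5 CPM in VENins (SD, n = 5), a log2 fold change of −0.24 ± 0.06 (edgeR adjusted p = 0.0983). CD74 was the only gene of the peptide-loading list with enough counts to be tested.

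**Figure D2:**
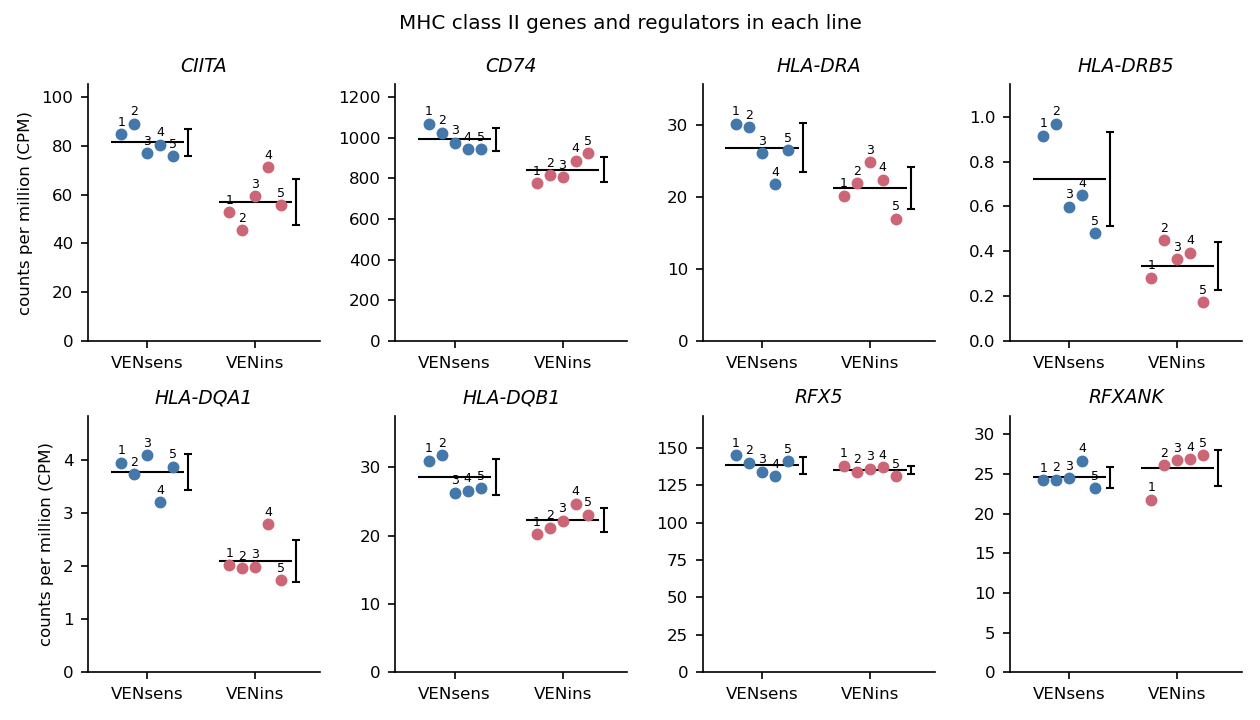
Level of the 8 tested genes in each line in CPM (y axes from 0), with points numbered by line, the mean as a horizontal line and 1 SD as a bar (n = 5 per condition). CIITA, CD74, HLA-DRB5, HLA-DQA1 and HLA-DQB1 do not overlap between VENsens and VENins, while HLA-DRA, RFX5 and RFXANK do. Of all tested genes 2.30% lie lower in VENins without overlap. CIITA and HLA-DQA1 chose the set, and HLA-DRB5 passed the filter through VENsens.

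The RFX subunits differed little between conditions. RFX5 (ENSG00000143390, chromosome 1), the subunit with the DNA-binding domain of the complex, was at 145, 140.0, 134, 131 and 141 CPM in VENsens and at 138, 134, 136, 137 and 131 CPM in VENins. RFXANK (ENSG00000064490, chromosome 19), its ankyrin-repeat partner, was at 24.2, 24.3, 24.5, 26.7 and 23.2 CPM in VENsens and at 21.8, 26.1, 26.8, 26.9 and 27.4 CPM in VENins. Both genes overlapped between the conditions. Log2 fold changes were −0.03 ± 0.05 for RFX5 (edgeR adjusted p = 0.828) and 0.07 ± 0.07 for RFXANK (edgeR adjusted p = 0.697). RFX5 was also among the most even genes across VENins lines, with an SD of log2 CPM of 0.03, and 1.26% of tested genes had a smaller one.

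The remaining enhanceosome genes did not pass the test in either direction. RFXAP, the third RFX subunit, had a log2 fold change of 0.12 ± 0.06 (edgeR adjusted p = 0.392). The NF-Y subunits NFYA, NFYB and NFYC had log2 fold changes of −0.03 ± 0.06, 0.11 ± 0.06 and 0.06 ± 0.06, and the X2-box factor CREB1 one of 0.04 ± 0.06. NFYB was at 54.5 to 58.1 CPM in VENsens and at 58.3 to 64.9 CPM in VENins, so that all VENins lines lay just above all VENsens lines, compared to 396 of all tested genes (2.36%). Of the 7 enhanceosome genes other than CIITA 2 were below 0, with a median log2 fold change of 0.06, and none passed (0 in edgeR and 0 in DESeq2, and 0 at an unadjusted p under 0.05 in edgeR, compared to 16.2% of all tested genes). For NFYA the sign depended on the line pairs used and turned to 0.01 without the line pair 5, and CREB1 came to 0.00, just below 0, without the line pair 1.

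Levels can be compared between genes only per length, as TPM, and only for genes outside the nearly empty window. On this scale CD74 was at 842 ± 45.2 TPM in VENsens and ranked 58th among protein-coding genes, compared to 691 ± 46.1 TPM and rank 76 in VENins. RFX5 followed with 81.5 ± 2.94 and 77.2 ± 3.27 TPM. RFXANK had 26.6 ± 1.59 TPM in VENsens and 26.9 ± 2.05 TPM in VENins. CIITA was lowest of the 4 with 10.6 ± 0.797 and 7.19 ± 1.28 TPM (SD, n = 5 throughout), and this order was the same in both conditions, with each step exceeding the spread between lines. CIITA has a long annotated exon union (20757 bases, compared to 2503 for RFXANK), which lowers its TPM value. In CPM it was above RFXANK, with means of 81.5 and 57.0 compared to 24.6 and 25.8. Its place below RFXANK thus rests on the length used, and the spread between lines does not measure that uncertainty.

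Counts over the set leave out CIITA and HLA-DQA1, which chose it, and HLA-DRB5, which passed the filter through VENsens. Of the other 5 tested genes 4 were below 0 in log2 fold change, with a median of −0.24, compared to 8198 of 16756 tested genes and a median of 0.0035. At an adjusted p under 0.05 (edgeR) 0 of the 5 were lower in VENins, compared to 27 of all tested genes (0.161%), and 33 (0.197%) passed in either direction. At an unadjusted p under 0.05 (edgeR) CD74, HLA-DRA and HLA-DQB1 were lower, compared to 1404 genes (8.38%). No VENins line reached the lowest VENsens line in 2 of the 5, CD74 and HLA-DQB1, compared to 385 genes (2.30%). Since the set was chosen in the same contrast, nothing is read from these counts. Of the 11 listed class II chain genes 4 were tested, of which HLA-DRA and HLA-DQB1 neither chose the set nor owed the test to 1 condition. Both were below 0 and lower at an unadjusted p under 0.05, and neither passed after adjustment (edgeR).

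For the genes that did not choose the set, the side of the threshold depended on the model. Without the line number as a block, CD74 (edgeR adjusted p = 0.0479) and HLA-DQB1 (edgeR adjusted p = 0.0382) were lower in VENins, where 100 of all tested genes (0.597%) were lower. DESeq2 with the line number also called CD74 (adjusted p = 0.0287) and HLA-DQB1 (adjusted p = 0.0264), where 149 genes (0.889%) were lower. Leaving out the line pair 4 likewise brought HLA-DQB1 (edgeR adjusted p = 0.0192) and HLA-DRA (edgeR adjusted p = 0.0235) past the threshold, where 252 of all tested genes (1.50%) were lower. Without the line pair 2 or 5 none of the 5 genes was past it in edgeR, and over all tested genes 5 (0.0298%) and 6 (0.0357%) were lower. At an unadjusted p under 0.05 3 of the 5 passed in either case, compared to 8.41% and 16.4% of all tested genes in either direction. Without a filter on low counts CD74, HLA-DQB1 and HLA-DRA were past the threshold (edgeR), where 433 of 32884 tested genes (1.32%) were lower. Without the line pair 5 the log2 fold changes of CD74, HLA-DQB1 and HLA-DRA were −0.29, −0.39 and −0.26. Over all alternatives the edgeR and DESeq2 adjusted p ranged from 0.000687 to 0.535 for CD74, from 0.00144 to 0.486 for HLA-DQB1 and from 0.00424 to 0.561 for HLA-DRA. Their log2 fold changes were below 0 in all of these.

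**Figure D3:**
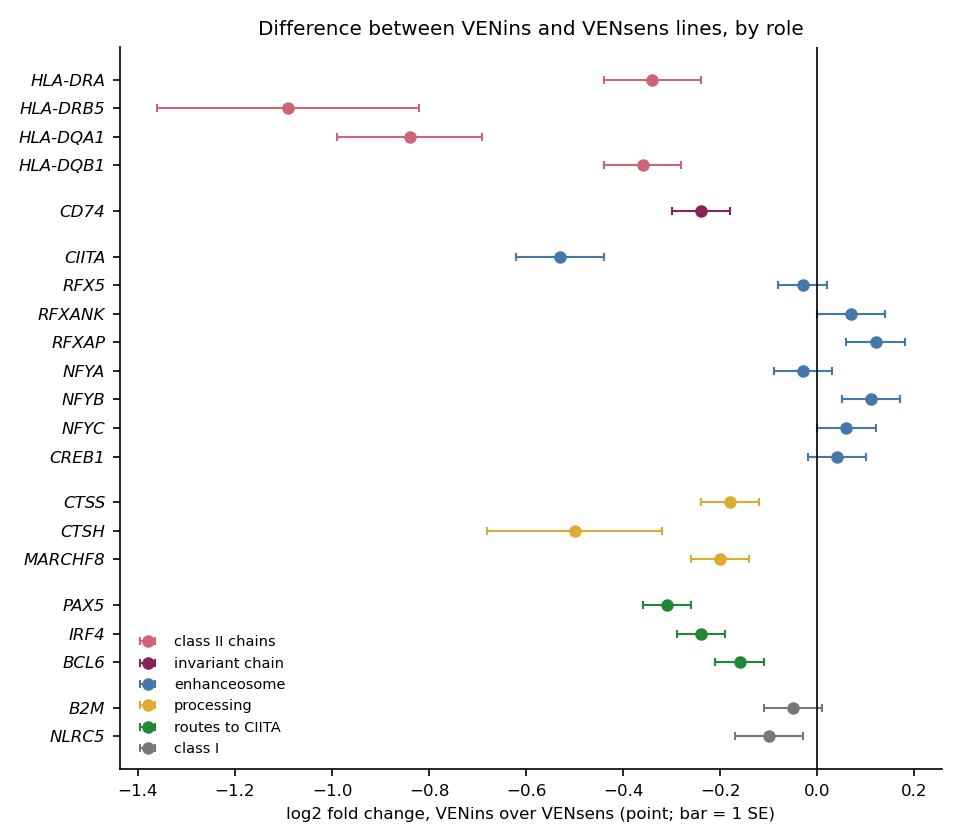
Log2 fold change of VENins over VENsens (x axis; point, with 1 SE as a bar) for class II genes, the enhanceosome and further genes by role. The class II chains, CD74 and CIITA lie between −1.09 and −0.24, and the other 7 enhanceosome genes between −0.03 and 0.12. CIITA and HLA-DQA1 chose the set, HLA-DRB5 passed the filter through VENsens, and a difference between these groups of genes was not tested.

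Next, the differences between lines of the same number were compared, although such lines did not deviate together (r between −0.103 and 0.028). CIITA was lower by a log2 difference of −0.68, −0.97, −0.38, −0.17 and −0.44 in pairs 1 to 5. HLA-DQB1 differed by −0.62, −0.59, −0.24, −0.11 and −0.23, and CD74 by −0.46, −0.33, −0.28, −0.09 and −0.03. For these 3 genes pairs 1 and 2 held the largest differences. HLA-DQA1 differed by −0.94, −0.90, −1.01, −0.20 and −1.11 and HLA-DRA by −0.58, −0.44, −0.07, 0.04 and −0.64, so that pair 5 was the largest for both. Pair 4 had the smallest difference of CIITA, HLA-DQA1, HLA-DQB1 and HLA-DRA and the second smallest of CD74, and the part that VENins line 4 has in these results beyond the values without it was not tested.

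To look at a measure into which the difference between conditions does not enter, the mean of each condition was subtracted from log2 CPM and the genes were compared with CIITA over the 10 libraries. HLA-DQB1 was most like CIITA with Pearson r = 0.74 (two-sided exact permutation within conditions, p = 0.0103, Benjamini-Hochberg adjusted over 7 genes p = 0.0724) and Spearman rho = 0.76 (exact permutation p = 0.0178). Without the 2 libraries farthest from the CIITA median, VENins lines 2 and 4, r was 0.85 (exact permutation p = 0.0333, adjusted p = 0.175). HLA-DQA1 had r = 0.56 (exact permutation p = 0.224, adjusted p = 0.540) and rho = 0.28 (exact permutation p = 0.467), and its r was −0.11 without these libraries, so that its relation rested on them.

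In Pearson r over the 10 libraries the other 5 genes were below HLA-DQA1. In rho CD74, HLA-DRA, HLA-DRB5 and RFXANK were above it, and without the 2 libraries all 5 had a higher r. CD74 reached r = 0.50 (exact permutation p = 0.231, adjusted p = 0.540) with rho = 0.53 (exact permutation p = 0.162), and r = 0.48 without the 2 libraries. HLA-DRA had r = 0.28 (exact permutation p = 0.505, adjusted p = 0.574) with rho = 0.48 (exact permutation p = 0.208), and r = 0.53 without them. RFX5 and RFXANK had r = 0.25 (exact permutation p = 0.402, adjusted p = 0.574) and r = 0.27 (exact permutation p = 0.476, adjusted p = 0.574), with rho = 0.08 (exact permutation p = 0.835) and rho = 0.33 (exact permutation p = 0.377), and r was 0.22 and 0.41 without the 2 libraries. For HLA-DRB5 r was 0.23 (exact permutation p = 0.574, adjusted p = 0.574) and rho 0.36 (exact permutation p = 0.337), and r was 0.78 without them. HLA-DRB5 passed the filter through VENsens and had 4 to 11 counts per VENins library, so that nothing is read from its r. In total 0 of 7 genes passed after adjustment in the exact permutation test, and 1 had an unadjusted p under 0.05. With the line number taken out as well, r was 0.91 for HLA-DQB1, 0.64 for CD74, 0.63 for RFX5 and 0.61 for HLA-DRA. It was 0.56 for HLA-DRB5, 0.50 for HLA-DQA1 and 0.11 for RFXANK. Only 5 differences remain in this case and a single gene cannot pass after adjustment, so nothing is read from the 0 genes that passed.

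**Figure D4:**
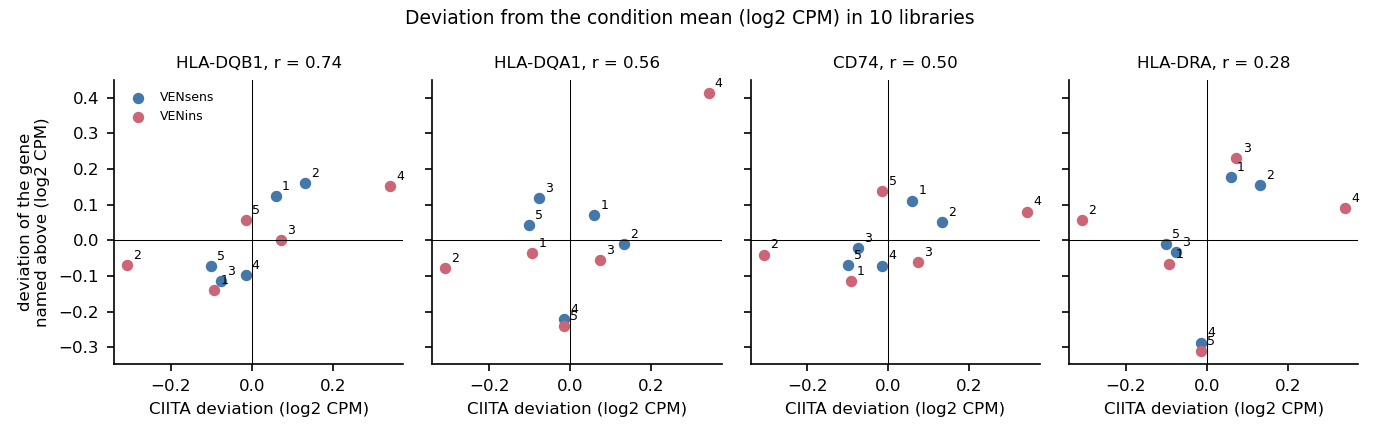
Deviation of each library from the mean of its condition (log2 CPM) for CIITA (x axes) and for HLA-DQB1, HLA-DQA1, CD74 and HLA-DRA (y axes), with points numbered by line. HLA-DQB1 follows CIITA most closely (r = 0.74), and VENins line 4 lies alone at the upper right for HLA-DQA1.

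Among 9631 other protein-coding genes with a mean of at least 5 CPM, HLA-DQB1 ranked 223rd in likeness to CIITA, CD74 1028th and HLA-DRA 2253rd. The 5 genes most like CIITA were the chromatin remodeler subunit ARID1B (r = 0.95), the cation channel TRPM2 (r = 0.95), the costimulatory ligand ICOSLG (r = 0.94), the isoleucyl-tRNA synthetase IARS1 (r = 0.94) and TBC1D2B (r = 0.93). ICOSLG had 62.4, 60.7, 54.5, 53.3 and 52.6 CPM in VENsens and 44.3, 36.5, 47.0, 54.6 and 41.8 CPM in VENins, with line 4 again the highest and line 2 the lowest of VENins. The genes most like HLA-DRA were ENTPD4 (r = 0.94), NEK3 (r = 0.94), the RNA helicase DDX17 (r = 0.91), PABPC3 (r = 0.91) and the B-cell kinase BTK (r = 0.91). Of the set, RFX5 ranked 127th in likeness to HLA-DRA (r = 0.75), HLA-DQB1 1648th (r = 0.42), CIITA 2824th (r = 0.28), CD74 4742nd (r = 0.03) and RFXANK 6107th (r = −0.18). The coefficients of the nearest genes over 10 libraries are the highest of 9631, and all are given as a description. PABPC3 has near-identical relatives among poly(A)-binding protein genes, and its counts are uncertain.

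Since the class II genes share promoter elements, the 250 bases before their annotated starts were read (RefSeq, GRCh38.p14). Of the 10 genes 8 had an entry, with 12 starts. CIITA and HLA-DRA had none. Searched on both strands were the cores of the Y box (ATTGG), the X1 box (CTAGNNAC) and the X2 box (TGNGTCA). Below are the stretches of the genes with an entry that did not overlap between VENsens and VENins, and of HLA-DMB, the gene of the HLA-DM pair with an X1 core. Capitals mark Y-box and X1-box cores on either strand (ATTGG appears as CCAAT on the other strand).
HLA-DQA1 (chr6:32637156-32637405, plus strand): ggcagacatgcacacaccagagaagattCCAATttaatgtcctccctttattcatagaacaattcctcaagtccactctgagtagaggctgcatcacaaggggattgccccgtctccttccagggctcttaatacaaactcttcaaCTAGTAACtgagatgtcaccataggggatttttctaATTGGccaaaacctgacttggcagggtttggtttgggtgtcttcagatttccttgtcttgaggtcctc
HLA-DQB1 (chr6:32666658-32666907, minus strand): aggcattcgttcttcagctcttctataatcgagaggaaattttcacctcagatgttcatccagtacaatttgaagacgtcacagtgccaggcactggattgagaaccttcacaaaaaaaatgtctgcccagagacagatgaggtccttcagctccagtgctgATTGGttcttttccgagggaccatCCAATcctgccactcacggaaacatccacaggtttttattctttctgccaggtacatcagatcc
HLA-DRB5 (chr6:32530288-32530537, minus strand): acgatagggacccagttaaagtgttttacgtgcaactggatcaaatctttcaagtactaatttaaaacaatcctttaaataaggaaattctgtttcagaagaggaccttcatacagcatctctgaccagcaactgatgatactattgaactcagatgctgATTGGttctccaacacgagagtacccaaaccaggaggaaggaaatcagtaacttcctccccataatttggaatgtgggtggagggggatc
CD74 (chr5:150412911-150413160, minus strand): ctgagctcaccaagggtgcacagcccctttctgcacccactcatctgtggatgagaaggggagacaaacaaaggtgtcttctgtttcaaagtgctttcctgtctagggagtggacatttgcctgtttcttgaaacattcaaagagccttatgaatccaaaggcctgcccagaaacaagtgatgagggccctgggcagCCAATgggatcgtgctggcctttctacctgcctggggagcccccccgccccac
HLA-DMB (chr6:32941029-32941278, minus strand): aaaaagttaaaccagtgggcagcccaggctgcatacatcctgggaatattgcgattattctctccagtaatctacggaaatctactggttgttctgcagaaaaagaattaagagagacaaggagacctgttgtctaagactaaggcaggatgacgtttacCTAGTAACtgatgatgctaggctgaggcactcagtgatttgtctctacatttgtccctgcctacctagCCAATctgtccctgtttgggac

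The Y-box core was present in 7 of the 12 stretches, compared to 32.0% of 35116 such stretches of all genes. These were 1 stretch each of all genes but RFXANK, while the other 2 stretches of RFX5 and the 3 of RFXANK, which overlap in part, had none. In HLA-DQA1 a Y core began 68 bases before the start and the X1 core 104 bases before it, in the order X1 then Y of the class II module. HLA-DQB1 had Y cores 88 and 64 bases and HLA-DRB5 1 core 90 bases before the start, without an X1 core of these letters. HLA-DMB carried the X1 core 90 bases before the start. The X1 core was found in 3 of the 12 stretches, of HLA-DQA1, HLA-DMB and RFX5, compared to 6.54% of all stretches, and the X2 core in 1 of RFX5, compared to 11.8%. CD74 had a single Y core on the opposite strand. A match describes the letters only, and no binding was measured.

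Further genes of the pathway were taken from lists of known function. Of 10 class II processing genes 7 were tested, 6 were below 0 and none passed, with a median log2 fold change of −0.18. At an unadjusted p under 0.05 (edgeR) 3 were lower, compared to 8.38% of all tested genes. The 3 with the smallest p were the ubiquitin ligase MARCHF8 (log2 fold change −0.20 ± 0.06, edgeR adjusted p = 0.140), the invariant-chain protease CTSS (−0.18 ± 0.06, edgeR adjusted p = 0.146) and CTSH (−0.50 ± 0.18, edgeR adjusted p = 0.200). CTSH had 14.2, 13.4, 24.1, 45.6 and 16.5 CPM in VENins lines 1 to 5, where line 4 was above all VENsens lines (23.5 to 35.3 CPM). Without the line pair 4 the log2 fold change of CTSH was −0.81 (edgeR adjusted p = 0.000107, range over alternatives 5.69e-07 to 0.662), where 252 of all tested genes (1.50%) were lower. Since pair 4 is the pair in which CTSH was higher in VENins, nothing is read from this call. The thiol reductase IFI30 of this list did not pass the filter, with 1 to 7 counts per VENsens library and 7 to 12 per VENins library. Its level was 0.0399 to 0.247 CPM in VENsens and 0.285 to 0.479 CPM in VENins, so that it was higher in all VENins lines without overlap. Of all tested genes, to which IFI30 does not belong, 2.36% lie higher in this way. IFI30 was named after its values were seen, and nothing is read from them. DESeq2 with the line number called 0 of the 7 genes, with 2 at an unadjusted p under 0.05, compared to 11.6% of all tested genes.

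All 18 genes on the routes to CIITA, which comprise B-lineage factors and the interferon-gamma pathway, were tested. Of these 6 were below 0 and 12 above, with a median log2 fold change of 0.03. At an adjusted p under 0.05 (edgeR) 1 was lower and 0 were higher, compared to 0.161% and 0.0358% of all tested genes. At an unadjusted p under 0.05 (edgeR) 3 were lower and 2 higher, compared to 8.38% and 7.79%. PAX5, which maintains B-lineage identity, fell from 782, 827, 713, 804 and 790.1 CPM in VENsens lines to 632, 584, 615, 676 and 647 CPM in VENins lines. No VENins line reached the lowest VENsens line, as for 2.30% of all tested genes. The log2 fold change of PAX5 was −0.31 ± 0.05 (edgeR adjusted p = 0.0272, range over alternatives 1.24e-06 to 0.242). This call was lost without the line pairs 2 (edgeR adjusted p = 0.242), 3 (0.0597) or 5 (0.0647), where the log2 fold changes were −0.26, −0.34 and −0.32.

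IRF4, a factor of pre-B-cell differentiation, was at 221, 221, 213, 211 and 212 CPM in VENsens and at 180.3, 175, 179, 198 and 181 CPM in VENins, without overlap, as for 2.30% of all tested genes. Its log2 fold change of −0.24 ± 0.05 missed the threshold (edgeR adjusted p = 0.0691, range over alternatives 0.00556 to 0.484). IRF4 passed it in edgeR without the block (0.0238), without the line pair 4 (0.0314) and without the filter (0.00556), and in DESeq2 (0.00664). The germinal-center repressor BCL6 had a log2 fold change of −0.16 ± 0.05 (edgeR adjusted p = 0.159). The 2 genes above 0 at an unadjusted p under 0.05, named after their values were seen, were SOCS1 and IRF1. SOCS1, an inhibitor of interferon signaling, had the largest log2 fold change of the list in size with 0.37 ± 0.15 (edgeR adjusted p = 0.261, range over alternatives 0.0303 to 0.614), with 0.13 without the line pair 5. It was at 6.10 to 8.90 CPM in VENsens and 5.66 to 14.8 CPM in VENins, with overlap. IRF1, a factor induced by interferon-gamma, had a log2 fold change of 0.15 ± 0.06 (edgeR adjusted p = 0.205).

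Class I genes served for comparison. Of 8 listed genes 4 were tested and none passed (edgeR, and 0 at an unadjusted p under 0.05, compared to 16.2% of all tested genes), with a median log2 fold change of −0.08. The class I coactivator NLRC5, a relative of CIITA, was at −0.10 ± 0.07 (edgeR adjusted p = 0.540), and the light chain B2M at −0.05 ± 0.06 (edgeR adjusted p = 0.760). NLRC5 was at 61.2, 60.2, 64.8, 84.6 and 67.6 CPM in VENins lines 1 to 5, with line 4 the highest as for CIITA. DESeq2 called 0 of the 4 genes, and 0 at an unadjusted p under 0.05. These values moved with the line pairs, and the median was −0.16 without 4, −0.13 without 5 and −0.04 without 1 or 2, with 1 of the 4 genes at an unadjusted p under 0.05 (edgeR) without 4, without 5 or with scaling by library size alone. NLRC5 lay between −0.18 and −0.04 and B2M between −0.11 and −0.01 when a line pair was left out, and neither passed. Whether the class II genes differed more than the class I genes was not tested.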

How the data were processed

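RNA-Seq counts of 10 RS4;11 lines were used, 5 VENsens and 5 VENins. The authors deposited raw counts per Ensembl identifier for each library. The submitters' processing notes name bcl2fastq 2.20.0.422, Bowtie2 2.3.5.1, SAMtools 1.9, HTSeq 0.9.1 and hg19/GRCh37. The annotation release and the strand setting were not given in the sources used here, so reads of overlapping antisense genes cannot be told apart. Reads not counted on a gene stayed out of library sizes, among them 24.6% to 26.2% of reads per library with low alignment quality. Of 63677 identifiers 52526 were matched to GENCODE 29 (GRCh38), which was used for names, exon lengths and gene neighborhoods, and 0.907% of counts lay on the others. Library pairs of a condition differed by more than sampling noise.

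Counts were filtered with filterByExpr (minimum count 10, minimum total 15), scaled by TMM and tested with edgeR 4.0.16 (R 4.3.3) by the quasi-likelihood F test with line number and condition, since the study's methods state a paired analysis. p-values were adjusted by Benjamini-Hochberg over the 16756 tested genes, and the threshold was 0.05. Log2 CPM used a prior count of 2. DESeq2 1.42.0 was an alternative, beside other scalings and filters, no block and each line pair left out. DESeq2 is also the tool that the study names for its paired analysis. Python 3.11.15, numpy 2.4.6, pandas 2.3.3 and matplotlib 3.10.9 were used, and the steps were tested on simulated data. Promoter sequences came from RefSeq (GRCh38.p14).

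The members and lists were chosen with earlier results of these data known. Named genes were the members, tested genes of the class II chain, loading and enhanceosome lists, for other lists those with an adjusted p under 0.05 or else the 3 with the smallest p, and the 5 genes most like CIITA and most like HLA-DRA. Some genes of these lists are not reported here.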

Additional observations from a re-analysis of the deposited data

Results flagged for a closer look

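In 10 groups of 5 lines, 1 line lay far from the other 4, with a gap to its neighbor above 0.71 of the group's range. Chance flags about 1 in 20 groups, and 112 groups were examined. VENins line 4 was the highest for DNTT (27.3 CPM), BLNK (9.55 CPM), HLA-DQA1 (2.79 CPM, the next line 2.02 CPM) and IRF4 (198 CPM, the next line 181 CPM). VENins line 1 was the lowest for RFXANK (21.8 CPM, the next line 26.1 CPM). VENins line 5 was the highest for IGLL1 (899 CPM), ITGAM (5.66 CPM) and PRDM1 (1.22 CPM). Among VENsens lines, line 1 was the highest for TCF3 (832 CPM), and line 2 the lowest for CSF1R (6.15 CPM). The causes of these differences were not tested.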

How the results depend on the processing

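The log2 fold changes of the 8 tested class II genes kept their sign in all 90 values under other settings, with CIITA between −0.62 and −0.42, HLA-DQA1 between −1.02 and −0.77 and HLA-DRB5 between −1.19 and −0.95. For CD74, HLA-DRA, HLA-DQB1, RFX5 and RFXANK 47 of 56 values stayed on their side of the threshold and 9 passed it in addition. The 23 values of CIITA and HLA-DQA1, given as a description, moved by less than the spread of the line pairs. The number of genes called was 33 and moved to 149 without the block, to 219 with DESeq2 and to 664 of 32884 tested genes without a filter on low counts. Without the filter the edgeR adjusted p of CD74 was 0.000687 instead of 0.0983, at the same log2 fold change of −0.24. The number of genes called ranged from 6 to 331 when a line pair was left out, with 331 without the line pair 4. The number of class II genes called lower leaves out CIITA and HLA-DQA1, which chose the set, and HLA-DRB5, which passed the filter through VENsens. Among the other 5 genes it was 0, where 27 of 16756 tested genes were lower. It moved to 2 without the block, with DESeq2 or without the line pair 4, where 100, 149 and 252 of all tested genes were lower. Without the filter it was 3, where 433 of 32884 tested genes were lower. The causes were not tested.

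For the 15 other named list genes, 154 values stayed on their side, 7 passed the threshold in addition, 3 lost it (PAX5) and 1 reversed (NFYA, between −0.08 and 0.01 when a line pair was left out, with 0.01 without 5), while CREB1 came to 0.00, just below 0, without 1. Likeness to CIITA gave 0 of 7 genes under all settings, and that of HLA-DQA1 reversed to −0.11 without 2 libraries. With line pairs taken out, 5 differences remain and a single gene cannot pass after adjustment.

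Line numbers did not pair the libraries in the data. Deviations of lines with the same number in both conditions correlated with r between −0.103 and 0.028, and none was most like the line of its own number. For this reason the 149 calls without the block are given beside the 33 with it. Depth limits HLA-DRB5 (4 to 22 counts) and HLA-DQA1 (40 to 116 counts).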
